A study of Zea mays with 10 samples.

Results

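INO1 of maize (LOC542540) encodes myo-inositol phosphate synthase, and it was represented on the arrays by 19 of 5400 cDNA clones. The members were all clones, each printed as 3 successive spots, whose platform annotation named LOC542540. They made up 57 of 16200 spots, carried 19 different sequence accessions, and belonged to the 811 clones that had a gene name. The study set the F1 hybrid of the inbred lines B73 and H99 against H99 and against B73 in immature ears. Each genotype was a bulk of 10 field-grown plants at stage V15, and the ears were used without silks and apexes. Poly(A) RNA was purified from total RNA of at least 3 extractions, and 1 µg was used for each labelling. There were 5 arrays of F1 with H99 and 5 arrays of F1 with B73. In each set, arrays 1 to 3 were forward, with F1 in Cy3 and the inbred in Cy5, and arrays 4 and 5 were reversed, with F1 in Cy5.

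Myo-inositol phosphate synthase turns a glucose phosphate into a myo-inositol phosphate, the first committed step of inositol synthesis. Myo-inositol goes into phosphatidylinositol of membranes, into raffinose-type sugars, into cell wall precursors and into phytic acid, the phosphorus store of the maize kernel. A synonym of the gene in the reference table, lpa1, is the name of a low phytic acid locus of maize. The synonym alone does not show that INO1 is the gene of that locus, and this was not examined here. The maize genome holds related sequences, and cDNA clones on an array can bind transcripts of relatives.

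All values are log2 ratios of the 2 channels as the authors deposited them. L2 is the mean over the H99 arrays and L1 the mean over the B73 arrays. The design derives 2 further quantities from these, the dominance parameter d = (L1 + L2)/2 and the additive parameter a = (L2 - L1)/2. If the deposited ratio is F1 over inbred, as the design text writes it, a positive L1 or L2 means more signal in the hybrid and a positive a means more in B73 than in H99. The sample titles name the inbred before F1, and the labels list the inbred as channel 2 on every array, reversed ones included. These labels, the dye layout and the design text do not settle the direction of the deposited values. Nor do they settle whether the reversed arrays had been turned, so signs are given here and not directions. A ratio gives no level, so the transcript level of INO1 and the identity of the tissue could not be checked. The arrays of a set repeated the labelling of 1 RNA pool per genotype. The p-values therefore cover differences between labellings and hybridizations and not between plants. The intensities behind the ratios, and so the signal over background, are unknown here. All 19 clones had a value on every array, 16 of them on all 30 spot measurements, and 5 of the 570 spot values were missing.

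Averaged over its 19 clones, INO1 passed the test against neither inbred. The gene mean was 0.01, -0.07, -0.10, -0.06 and -0.02 on H99 arrays 1 to 5, against 0.00, 0.03, 0.15, 0.02 and -0.04 on B73 arrays 1 to 5. The 2 sets overlapped, and B73 array 3 held the highest value of the 10. L2 of the gene mean was -0.05 ± 0.05 (SD, n = 5 arrays; limma, adjusted p = 0.722), with a 95% interval of -0.16 to 0.06. L1 of the gene mean was 0.03 ± 0.07 (SD, n = 5 arrays; limma, adjusted p = 0.645), with a 95% interval of -0.08 to 0.14. Both intervals use limma's moderated SE of 0.052, which also draws on the spread of all other rows and not on the printed SD alone. The dominance parameter was -0.01 (adjusted p = 0.881), and the additive parameter was -0.04 with a 95% interval of -0.12 to 0.04 (adjusted p = 0.450). In the same fit over 4763 gene means and unnamed clones, 0.987% passed for L2, 40.4% for L1, 24.1% for d and 19.4% for a. Most of these rows were single unnamed clones, so the shares are not those of means over many clones. The adjusted threshold was 0.05 throughout.

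Behind this mean, single clones passed with opposite signs on the B73 arrays. There 8 of 19 INO1 clones (42.1%) passed for L1 (5 positive, 3 negative), against 41.7% of all 5357 clones tested. The share of INO1 clones thus lay near that of the whole array. Positive calls made up 21% and negative calls 20.7% of all clones. The 19 L1 values ran from -0.70 to 0.44 with a median of 0.09 and an SD of 0.289 between clones. Over all clones the median was -0.01 and the SD 0.229. Of all clones, 1.01% had a lower L1 than the lowest INO1 clone, and 1.36% had a higher L1 than the highest. These are the extremes of 19 clones, so such shares do not mark INO1 as unusual. With the reversed B73 arrays given the opposite sign, 0 INO1 clones and 0 clones of the whole array passed for L1 by limma, with 2 INO1 clones at an unadjusted p under 0.05. The forward arrays alone, which carry 1 dye orientation, gave 9 calls, clone 9 beside the same 8 clones, with 53.2% of all clones called. The L1 calls over all arrays thus held only with the reversed B73 arrays in the direction deposited.

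**Figure D1:**
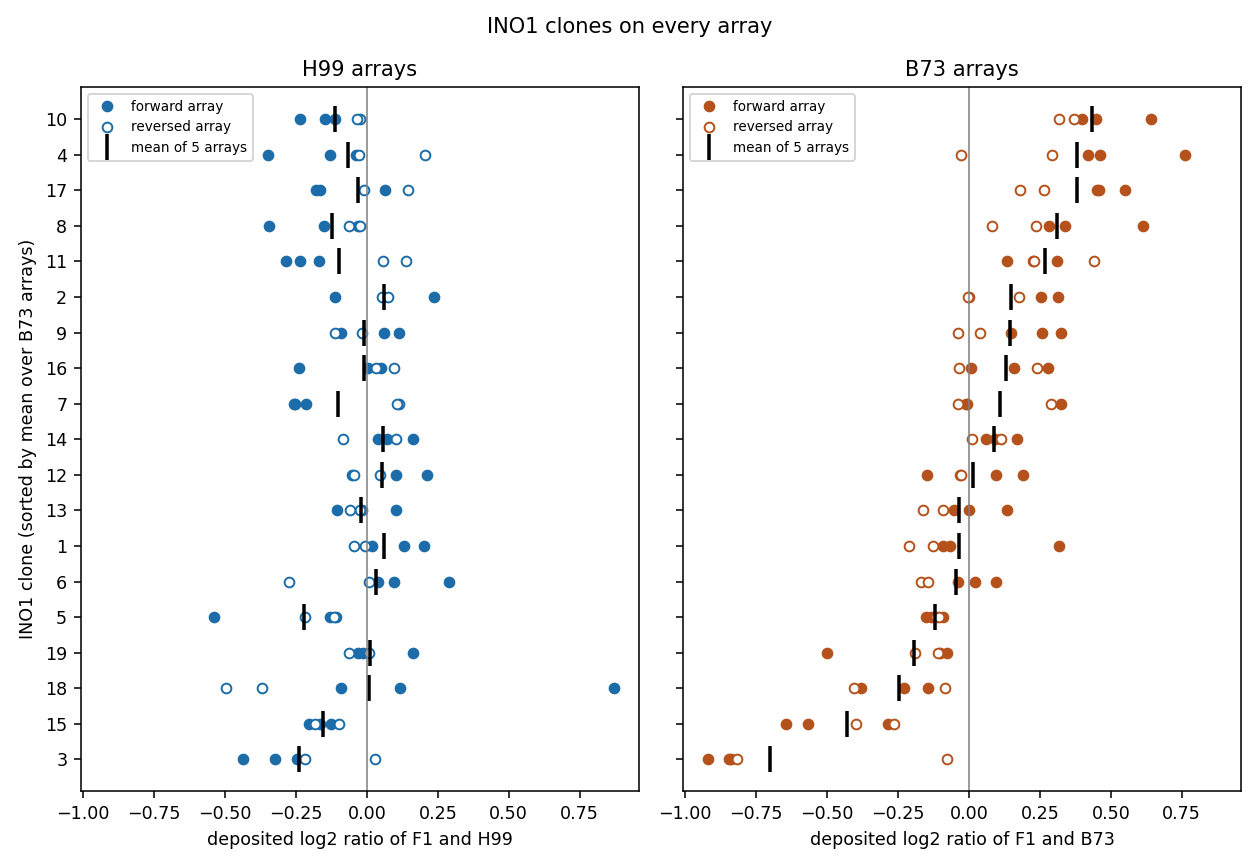
Deposited log2 ratio of each of the 19 INO1 clones (rows, sorted by L1) on the 5 H99 arrays (left) and the 5 B73 arrays (right); filled circles are forward arrays, open circles reversed arrays and black bars the mean of 5 arrays. The B73 means run from -0.70 for clone 3 to 0.44 for clone 10, while the H99 means stay between -0.24 and 0.06.

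Clones 10, 17, 4, 8 and 11, numbered in row order, were the 5 clones with a positive L1 call. Clone 10 gave -0.23, -0.11, -0.15, -0.02 and -0.04 on H99 arrays 1 to 5, against 0.45, 0.40, 0.64, 0.37 and 0.32 on B73 arrays 1 to 5. Every H99 array was negative and every B73 array positive, and the sets did not overlap. Its L2 was -0.11 (adjusted p = 0.394) and its L1 0.44 (limma, SE 0.060, adjusted p = 6.68e-05).

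Clone 17 read 0.06, -0.18, -0.17, -0.01 and 0.14 on the H99 arrays, against 0.46, 0.45, 0.55, 0.26 and 0.18 on the B73 arrays. The highest H99 value stayed below the lowest B73 value. L2 was -0.03 (adjusted p = 0.892), and L1 was 0.38 (limma, SE 0.067, adjusted p = 5.42e-04). For clone 8 the values were -0.03, -0.15, -0.35, -0.02 and -0.06 on the H99 arrays, against 0.34, 0.28, 0.61, 0.24 and 0.08 on the B73 arrays. All H99 values were below 0 and all B73 values above it. L2 of clone 8 was -0.12 (adjusted p = 0.43) and L1 was 0.31 (limma, SE 0.072, adjusted p = 0.003).

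Clones 4 and 11 had a positive L1 with sets that overlapped. Clone 4 had -0.04, -0.13, -0.35, -0.03 and 0.21 on the H99 arrays, against 0.42, 0.46, 0.76, -0.03 and 0.29 on the B73 arrays. Its B73 array 4, a reversed one, was the only B73 array below 0. L2 was -0.07 (adjusted p = 0.783) and L1 was 0.38 (limma, SE 0.090, adjusted p = 0.003). Clone 11 had -0.17, -0.29, -0.24, 0.06 and 0.14 on the H99 arrays, against 0.23, 0.13, 0.31, 0.44 and 0.23 on the B73 arrays. Its H99 values were negative on the forward and positive on the reversed arrays, and its B73 values were positive on all 5. L2 was -0.10 (adjusted p = 0.523) and L1 was 0.27 (limma, SE 0.069, adjusted p = 0.006).

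Clones 3, 15 and 19 had a negative L1 call. Clone 3, with the most negative L1 of the gene, read -0.33, -0.44, -0.25, 0.03 and -0.22 on the H99 arrays, against -0.92, -0.84, -0.84, -0.08 and -0.82 on the B73 arrays. B73 array 4, reversed, stood apart from the other B73 arrays, while reversed array 5 lay with the forward ones. The 3 spots of clone 3 on B73 array 5 had -0.75, -0.91 and -0.79, and those on B73 array 4 had 0.00, -0.17 and -0.07, so the gap was shared by the spots. L2 was -0.24 (adjusted p = 0.246) and L1 was -0.70 (limma, SE 0.097, adjusted p = 6.77e-05). Without B73 array 4 the L1 of clone 3 was -0.86.

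Clone 15 had -0.13, -0.17, -0.20, -0.10 and -0.18 on the H99 arrays, against -0.64, -0.57, -0.28, -0.26 and -0.40 on the B73 arrays. It was negative on all 10 arrays, and its sets did not overlap. L2 was -0.16 (adjusted p = 0.244) and L1 was -0.43 (limma, SE 0.063, adjusted p = 1.10e-04). Clone 19 had 0.16, -0.01, -0.03, -0.06 and 0.01 on the H99 arrays, against -0.50, -0.10, -0.08, -0.11 and -0.19 on the B73 arrays. B73 array 1 lay far below the other B73 arrays. L1 of clone 19 was -0.20 (limma, SE 0.066, adjusted p = 0.025), and without B73 array 1 it was -0.12 (adjusted p = 0.171), so the call rested on that array.

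The other 11 clones did not pass for L1. Clone 18 had the widest spread, with 0.87, 0.12, -0.09, -0.50 and -0.37 on the H99 arrays, against -0.38, -0.14, -0.23, -0.40 and -0.08 on the B73 arrays. Its 3 spots also differed most from each other, with 0.74, 0.72 and 1.15 on H99 array 1. The SD between spots of a clone was 0.0300 to 0.238 over INO1 clones with a median of 0.0646, and 1.38% of all clones had a larger one than clone 18. Clone 5 was negative on every array, with -0.13, -0.11, -0.54, -0.22 and -0.12 on the H99 arrays, against -0.15, -0.13, -0.09, -0.12 and -0.11 on the B73 arrays. The other 9 clones ran from -0.27 to 0.29 on the H99 arrays, both in clone 6, and from -0.21 (clone 1) to 0.32 on the B73 arrays. Clone 7 was negative on the H99 forward arrays, with a mean of -0.24, and positive on the reversed ones, with a mean of 0.11 (limma, difference -0.35, adjusted p = 0.104). L1 of the clones that did not pass lay between -0.25 (clone 18) and 0.15 (clone 2). The L1 of a single spot had 1 sign on all 3 spots in 17 of the 19 clones, and the L2 in 16.

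No INO1 clone passed for L2 by limma, against 1.23% of all clones. At an unadjusted p under 0.05 there were 3 of 19 INO1 clones, against 15.4% of all clones, and with each clone's own variance in place of limma's moderated one there were again 0 calls. L2 ran from -0.24 (clone 3) to 0.06 (clone 2), with a median of -0.02 and an SD of 0.0930 over the INO1 clones. All clones together had a median of 0.00 and an SD of 0.112. The H99 forward arrays correlated with each other at 0.336 to 0.617 over all clones, while forward with reversed H99 arrays gave -0.169 to 0.223. The B73 forward arrays correlated at 0.763 to 0.815, and forward with reversed ones at 0.381 to 0.542. Forward and reversed arrays thus had lower correlations in the H99 set than in the B73 set. L1 and L2 share the hybrid RNA, so the INO1 values of both are given side by side only.

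**Figure D2:**
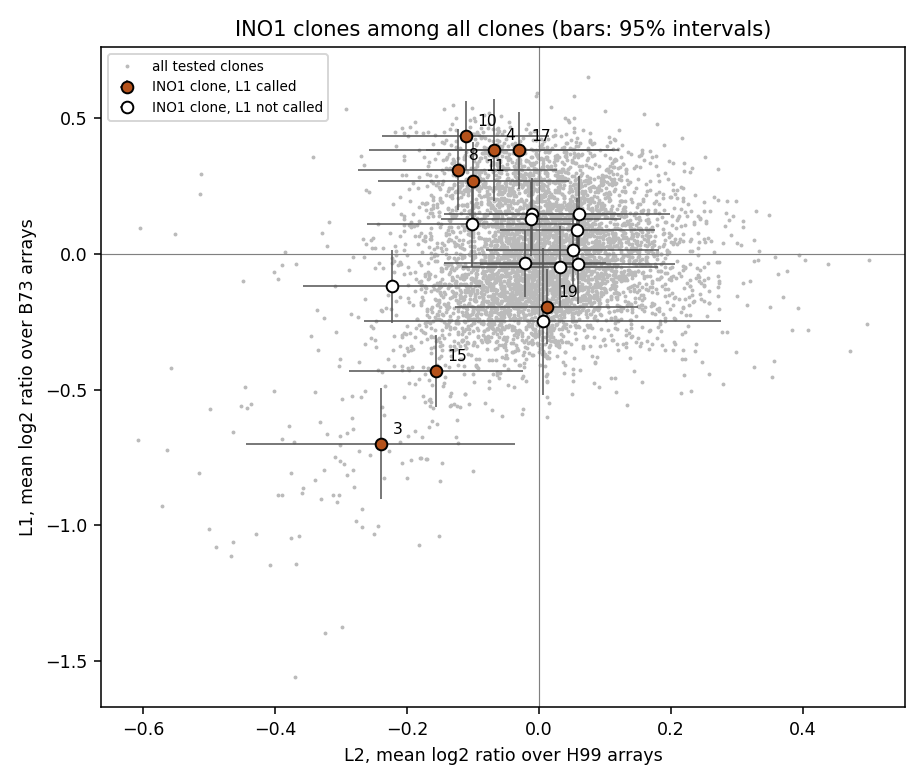
L2 (x axis) and L1 (y axis), mean log2 ratios, for the 5357 tested clones (grey) and the 19 INO1 clones (filled where L1 was called, with 95% intervals of limma as bars). INO1 clones lie on both sides of 0 along the y axis, from -0.70 for clone 3 to 0.44 for clone 10.

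The additive parameter a, which compares the inbreds through the hybrid, passed for 7 of 19 INO1 clones (36.8%), against 20.3% of all clones. The difference between these shares was not tested. With the reversed B73 arrays given the opposite sign, 0 INO1 clones were called for a by limma (0 at an unadjusted p under 0.05), against 0.0373% of all clones. The sign of a was negative for clones 10, 4, 8, 17 and 11 and positive for clones 3 and 15. Negative calls were 11.2% and positive calls 9.15% of all clones. Clone 10 had the largest size, with a of -0.27 (limma, SE 0.043, adjusted p = 0.001). The other negative values were those of clone 4 with -0.22 (adjusted p = 0.021), clone 8 with -0.22 (adjusted p = 0.009), clone 17 with -0.21 (adjusted p = 0.009) and clone 11 with -0.18 (adjusted p = 0.016). The 2 positive values were 0.23 for clone 3 (adjusted p = 0.026) and 0.14 for clone 15 (adjusted p = 0.037). The sets of H99 and B73 arrays did not overlap in 5 of 19 INO1 clones, namely 8, 10, 15, 17 and 19, against 11.8% of all clones.

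Not all of these calls held when arrays were scaled or single arrays left out. With all arrays scaled to one spread, 3 INO1 clones passed for a, and with quantile normalization 5, all with a negative sign, so the positive calls of clones 3 and 15 were lost. Clone 15 lost its call without any one of 6 arrays, namely B73 arrays 1 and 2 and H99 arrays 1 to 4. Clone 3 lost it without any one of 5 arrays (B73 arrays 1 to 3, H99 arrays 3 and 4). Clone 4 lost it without any one of 5 (B73 arrays 1 to 3, H99 arrays 2 and 3), and clone 11 without H99 array 2. The calls of clones 8, 10 and 17 held without any single array, but not with the reversed B73 arrays turned. With the median of the neighbouring clones subtracted on each array, clone 8 had an a of -0.05 (adjusted p = 0.271) and clone 17 one of -0.07 (adjusted p = 0.105), and neither passed.

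The dominance parameter d passed for 5 of 19 INO1 clones (26.3%), against 25.2% of all clones, a share near that of the array. It was negative for clone 3 at -0.47 (limma, adjusted p = 1.60e-04), clone 15 at -0.29 (adjusted p = 2.38e-04) and clone 5 at -0.17 (adjusted p = 0.014). It was positive for clone 17 at 0.18 (adjusted p = 0.016) and clone 10 at 0.16 (adjusted p = 0.013). Positive calls were 12.5% and negative calls 12.7% of all clones. Clone 5 was called for d and for neither L1, L2 nor a. With the reversed B73 arrays turned, 0 INO1 clones were called for d by limma (1 at an unadjusted p under 0.05), against 0.0373% of all clones. With only the reversed H99 arrays turned, clone 5 lost its call. With neighbours subtracted, clone 17 had a d of 0.05 (adjusted p = 0.270) and was not called.

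**Figure D3:**
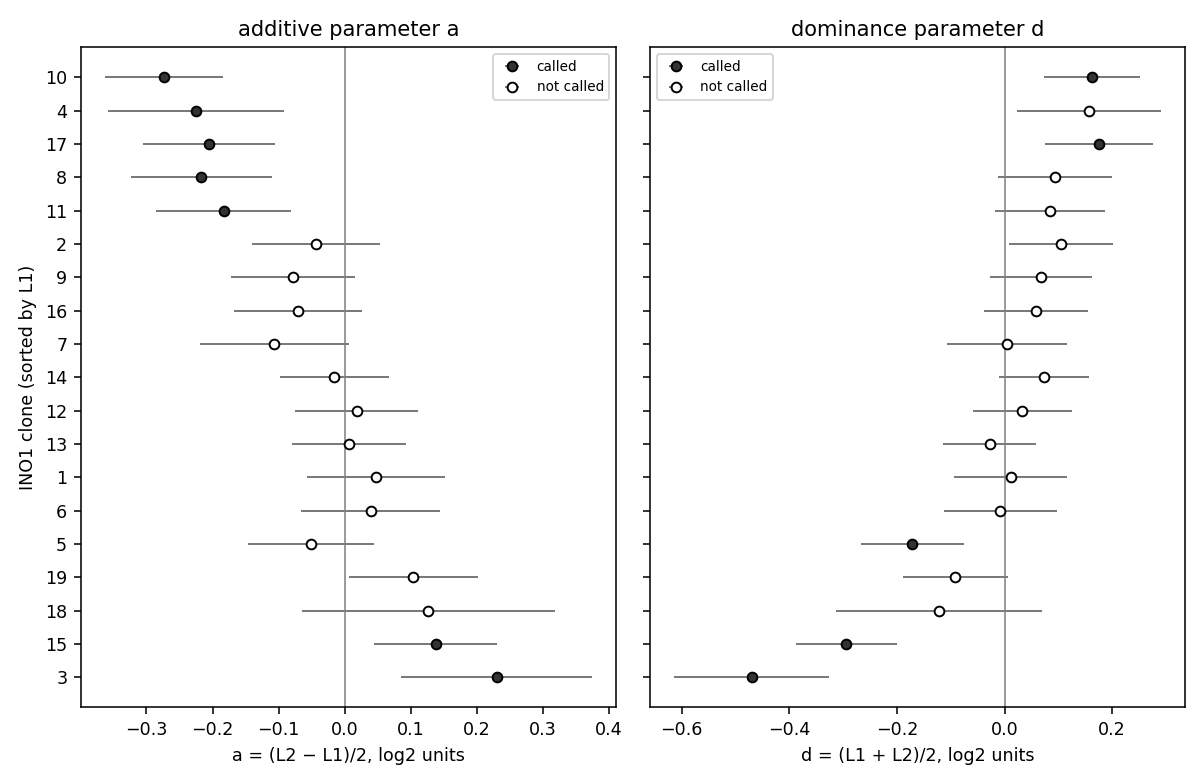
Additive parameter a (left) and dominance parameter d (right) of the 19 INO1 clones in log2 units, with 95% intervals of limma; filled circles passed an adjusted p of 0.05. For a, 5 clones are called negative and 2 positive; for d, 3 are called negative and 2 positive.

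For the 7 clones called for a, the dominance ratio d/|a| of the study design was given a 95% Fieller interval, an interval for a ratio of 2 estimates. An interval that excludes 0 and holds 1 or -1 is termed dominant, and one wholly beyond 1 or -1 overdominant. Clone 10 had a ratio of 0.594 (0.256 to 1.07), clone 17 one of 0.855 (0.339 to 1.91) and clone 4 one of 0.697 (0.10 to 2.06), so these 3 fell in the dominant class. Each of these intervals also held values below and above 1. The class therefore does not separate a ratio of 1 from a ratio between 0 and 1 or one beyond 1. Clone 3 at -2.04 (-5.61 to -1.11) and clone 15 at -2.13 (-6.76 to -1.11) fell in the overdominant class. Neither clone passed for L2 (limma, adjusted p = 0.246 and 0.244), so the hybrid was not separated from H99 in them. The class rests on the interval alone, which is not adjusted for the number of clones. The intervals of clone 8 (-0.0593 to 1.20) and clone 11 (-0.103 to 1.44) held both 0 and 1 and left the class unresolved. Clone 4 was placed in the dominant class although its d did not pass (adjusted p = 0.076). A class requires a call for a, so no clone has one with the reversed B73 arrays turned. Only clone 10 of the 7 kept its call for a with neighbours subtracted, and clones 3 and 15 lost theirs with scaled or quantile-normalized arrays.

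Single clones differed between the dye orientations. Forward minus reversed means differed for clone 18 on the H99 arrays, with 0.30 forward and -0.43 reversed (limma, difference 0.73, adjusted p = 0.042), the 1 INO1 clone called among 4.31% of all clones. On the B73 arrays it was clone 4, with 0.55 forward and 0.13 reversed (difference 0.42, adjusted p = 0.046), among 15.4% of all clones. The call of clone 18 was lost without any one of B73 array 1 and H99 arrays 1, 2, 4 and 5, and that of clone 4 without any one of B73 arrays 2, 3 and 4 and H99 arrays 2, 4 and 5. Clone 3 had -0.87 on forward and -0.45 on reversed B73 arrays (difference -0.42, adjusted p = 0.073). Sign was the same on all 5 H99 arrays in 4 of 19 INO1 clones, against 16.5% of all clones, and on all 5 B73 arrays in 10 of 19, against 37.7% of all clones.

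Clones of the same gene name did not follow one pattern over the 10 arrays. Pearson's r over the 171 pairs of INO1 clones had a median of 0.00 and ran from -0.761 to 0.944. Between the 5 clones with a positive L1 call it was 0.647 to 0.944 over 10 pairs, and 0.185 to 0.819 once each set of arrays was centred on its mean. Between the 3 clones with a negative L1 call it was 0.552 to 0.806, and 0.203 to 0.636 once centred. Between the positive and the negative clones it was -0.761 to -0.255 with a median of -0.602. Once centred, these pairs ran from -0.535 to 0.654 with a median of 0.0451. Since these groups were made from L1 over the same arrays, the values describe the groups and are no evidence for them. The 55 pairs of clones not called for L1 had a median of 0.0667. As a scale, 5670 pairs of named clones of 1 gene had a median r of 0.0921, and 304408 pairs of different genes one of 0.00, over the same arrays.

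**Figure D4:**
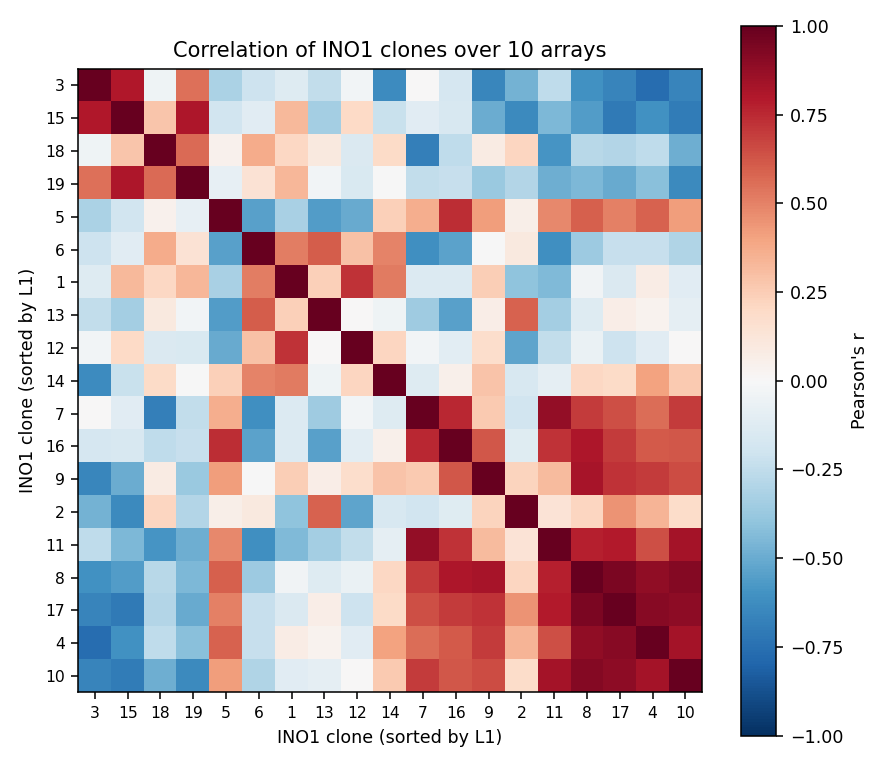
Pearson's r over the 10 arrays for each pair of the 19 INO1 clones, both axes sorted by L1; red is positive and blue negative. The 5 clones with a positive L1 call (lower right) pair at 0.647 to 0.944, and they pair with clones 3, 15 and 19 at -0.761 to -0.255, which becomes -0.535 to 0.654 once each set of arrays is centred (not drawn).

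Among the 19 genes with at least 10 clones on the arrays, INO1 had the third highest SD of L1 between its clones. At 0.289 it came after the alpha-tubulin gene tua3 at 0.354 and the heat shock chaperone gene hsp70-5 at 0.336. For L2 its SD ranked 8 of 19. The median pair correlation ranked 15 of 19, with the highest at 0.679 for GPC1, a glyceraldehyde phosphate dehydrogenase gene of glycolysis. Whether each clone holds INO1 sequence alone was not tested, because clone sequences were not analysed here.

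L1 of an INO1 clone moved with the ratios of the clones deposited next to it. The median L1 of the 6 neighbouring clones in row order (3 on each side) correlated with the L1 of the clone at 0.707 over the 19 INO1 clones and at 0.418 over 5357 clones. For L2 these correlations were 0.182 and 0.318. Neighbours share the array, and their places on the slide are not given here. The sign of the neighbour median equalled that of L1 in 13 of 19 INO1 clones, against 65.7% of all clones, a share near that of the array. It did so in 7 of the 8 INO1 clones called for L1, the exception being clone 10. The share among all called clones of the array is not given here, so the 7 of 8 is no trait of INO1. The neighbour median was 0.38 beside clone 8, 0.27 beside clone 17, 0.23 beside clone 4 and 0.19 beside clone 11. It was -0.05 beside clone 10, -0.22 beside clone 3, -0.13 beside clone 15 and -0.15 beside clone 19. Its part in the calls was examined by subtracting it from each array.

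After subtraction, L1 stayed called for clones 10, 3, 15 and 17 among the 8. Clone 10 had 0.49 (limma, adjusted p = 9.77e-05), clone 3 -0.49 (adjusted p = 0.001), clone 15 -0.32 (adjusted p = 4.36e-04) and clone 17 0.12 (adjusted p = 0.043). No longer called were clone 4 with 0.15 (limma, adjusted p = 0.085) and clone 11 with 0.07 (adjusted p = 0.320). The same held for clone 8 with -0.04 (adjusted p = 0.456) and clone 19 with -0.05 (adjusted p = 0.448). Clones 9, 12, 14 and 16 then passed with a positive sign, so 8 clones were called again, against 38.5% of all clones. For a, 2 INO1 clones were called, clone 10 at -0.24 (adjusted p = 0.004) and clone 16 at -0.16 (adjusted p = 0.006), against 19.9% of all clones. For L2, clone 15 passed at -0.20 (adjusted p = 0.042), against 3.32%. Clone 10 is the only INO1 clone called for both L1 and a before and after the subtraction.

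**Figure D5:**
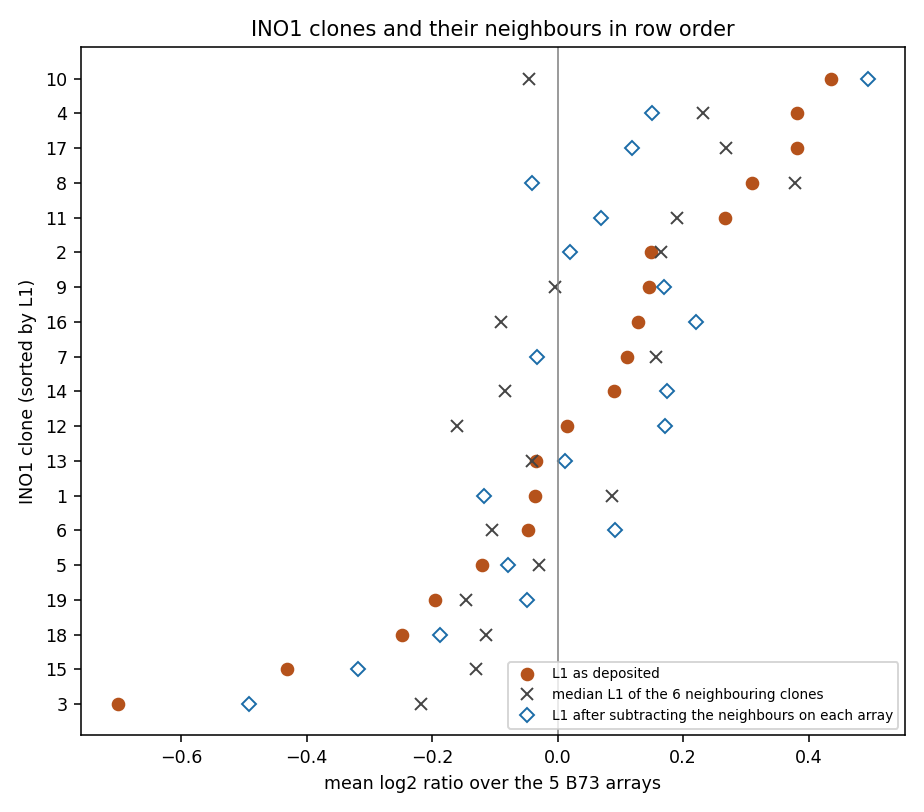
Mean log2 ratio over the 5 B73 arrays (x axis) for each INO1 clone (rows, sorted by L1): as deposited (filled circles), the median of the 6 neighbouring clones (crosses) and the clone after subtracting its neighbours on each array (diamonds). After subtraction clone 8 lies at -0.04, beside 0.31 as deposited, and clone 10 at 0.49, beside 0.44 as deposited.

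Of the list of inositol and phytate genes, INO1 was the only member that the annotation held by the searched names. PIS (LOC542548), the phosphatidylinositol synthase that joins myo-inositol to a lipid, was annotated under a name outside that list and was added after its values were seen. Its 2 clones differed. The first had 0.04, -0.17, -0.21, 0.15 and 0.12 on the H99 arrays, against 0.42, 0.42, 0.57, 0.27 and 0.11 on the B73 arrays. Its L1 was 0.36 (limma, adjusted p = 0.001), beside a neighbour median of 0.23, and 0.14 after subtraction (adjusted p = 0.037). The second had 0.14, 0.13, 0.07, 0.09 and -0.11 on the H99 arrays, against -0.01, -0.07, 0.11, -0.08 and 0.01 on the B73 arrays, with an L1 of -0.01 (adjusted p = 0.902). The gene mean of PIS had an L2 of 0.03 (adjusted p = 0.887) and an L1 of 0.17 (adjusted p = 0.023).

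The list of glucose phosphate and sucrose use was represented by 12 genes. It reaches to glycolysis and alcohol dehydrogenase, so not all its members make or use the glucose phosphate from which inositol synthesis starts. None of their gene means passed for L2, against 0.987% of all rows of the gene table. For L1, 2 of 12 were called, against 40.4% of all rows, and both were negative. Most of these rows were single unnamed clones, while the list genes were means over up to 11 clones, whose signs can cancel. For gpc2, 6 of 7 clones were called for L1, but its gene mean was not. The shares of the list and of all rows are therefore not like for like in any of the 4 quantities. These were ald1, an aldolase of glycolysis with 1 clone, at -0.47 (limma, adjusted p = 3.57e-04) and GPC1 at -0.16 (adjusted p = 0.034). The median L1 of the list was -0.08, against -0.01 over all rows. For d, 1 of 12 was called, ald1 at -0.29 (adjusted p = 0.002), against 24.1% of all rows. For a, 4 of 12 were called, against 19.4% of all rows. Of these, ald1 at 0.19 (adjusted p = 0.024), GPC1 at 0.20 (adjusted p = 0.007) and its relative gpc2 at 0.15 (adjusted p = 0.013) were positive, and the alcohol dehydrogenase gene adh1 was negative at -0.12 (adjusted p = 0.046). The median a of the list was 0.03, against 0.01 over all rows. GPC1 and gpc2 are close relatives, whose clones can share signal. The sucrose synthase genes sus1 and sh1, the enolase genes eno1 and eno2, the phosphogluconate dehydrogenase gene pgd2, the pyruvate decarboxylase gene pdc3, gpc3 and AGP2, which is named for a starch synthesis enzyme, passed in none of the 4 quantities as gene means. Single clones of some of them did pass for L1, with 6 of 11 clones of sus1, 4 of 5 of sh1, 3 of 5 of eno1 and 1 of 4 of eno2. No clone of pgd2, pdc3, gpc3 or AGP2 passed for L1, and over the whole array 41.7% of clones did. For a, 5 of 11 clones of sus1, 1 of 5 of eno1 and 1 of 4 of eno2 passed, and none of the other genes, against 20.3% of all clones.

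The 5 named genes whose gene mean was most like that of INO1 over the 10 arrays were taken from 208 genes measured on all of them. Pearson's r was 0.909 for LOC606398, 0.902 for the MADS-box gene m28 (LOC542045), 0.886 for PIS, 0.877 for the translation initiation factor gene eIFiso-4E (LOC541708) and 0.873 for the small GTPase gene rop4 (LOC542739). PIS had 2 clones, which differed, and LOC606398, m28, eIFiso-4E and rop4 had 1 clone each. Over the 208 genes the median r was 0.104, and 11 genes were above 0.8. The likeness was to a gene mean that did not exceed 0.151 in size on any array, and the arrays share the hybrid RNA. That mean averages INO1 clones that did not follow one pattern. Each of the 5 had its highest value on B73 array 3, as INO1 did, and without that array r over the other 9 was 0.813, 0.841, 0.756, 0.836 and 0.850 in the same order. With each set of arrays centred on its mean, r over all 10 was 0.854, 0.843, 0.816, 0.803 and 0.844. The 3 least alike were LOC100101510 at -0.820, the glutathione transferase gene gst41 (LOC541849) at -0.859 and mbd106, named for a methyl-CpG-binding domain, at -0.879. Without B73 array 3 these were -0.513, -0.676 and -0.800.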

How the data were processed

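The deposited values were log2 ratios of the 2 channels, 1 per spot, normalized by the authors before deposit, since each array's median lay within 0.001 of 0; how the arrays were scanned, filtered and normalized is not given in the sources used here. Missing spots (0.253% to 2.31% per array) were kept missing, and each set of 3 successive spots was averaged to 1 clone. Tests covered the 5357 clones measured on at least 3 arrays of each inbred, with at least 1 of each dye orientation, and left out 43. All 10 arrays were fitted with limma 3.58.1 in R 4.3.3 on 1 mean for each inbred. The p-values were adjusted by Benjamini and Hochberg over all clones at 0.05. Gene means were fitted in the same way together with unnamed clones. The reversed arrays were used as deposited. The fit was tested on simulated data with known changes, drawn independently for each clone and array. The simulation held no effects of dye orientation or neighbouring clones, so it does not cover these. Gene names came from the platform annotation, of which 208 of 213 genes matched a RefSeq gene table. The members, the gene lists and the tests were chosen with earlier results of these data known. Named in the text were all INO1 clones, the members of both lists that passed, and the 5 most and 3 least alike genes; PIS and the list members named as not passing were added after their values were seen. From the glucose phosphate and sucrose list, 8 genes that matched by letters alone (marker names and an aldehyde dehydrogenase) were left out. Alternatives were other normalizations, each clone's own variance, array weights, turned reversed arrays, a dye term, a replicate block, spot medians, clones measured on all 10 arrays, subtracted neighbours, forward arrays only and leaving out each array; those for the dye orientation difference were chosen after seeing the data.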

Additional observations from a re-analysis of the deposited data

Results flagged for a closer look

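In 7 INO1 clones the H99 and B73 arrays differed by the additive parameter a, with adjusted p-values of 0.001 to 0.037 (limma). The values were -0.27 for clone 10, -0.22 for clone 4, -0.22 for clone 8, -0.21 for clone 17, -0.18 for clone 11, 0.14 for clone 15 and 0.23 for clone 3. With the reversed B73 arrays turned 0 INO1 clones were called for a, and 3 were called with arrays scaled to one spread or without limma's moderation of the variance. With neighbours subtracted there were 2, of which only clone 10 is among these 7.

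A single array stood apart from the other 4 of its set in 5 of 40 tests of the 5 H99 or 5 B73 arrays. Dixon's rule marks about 1 in 20 such groups by chance. Clone 5 had -0.54 on H99 array 3, and clone 16 had -0.24 on the same array. Clone 1 had 0.32 on B73 array 3, clone 3 had -0.078 on B73 array 4, and clone 19 had -0.50 on B73 array 1. Of these, the arrays of clones 3 and 19 bear on calls for L1.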

How the results depend on the processing

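The INO1 gene mean was called for none of L1, L2, d and a under any of 24 alternatives; its values lay within 0.00 to 0.06 (L1), -0.06 to -0.02 (L2), -0.02 to 0.01 (d) and -0.06 to -0.02 (a). With the reversed B73 arrays turned, alone or with the H99 ones, 0 clones were called for L1, d and a, where the deposited signs gave 8, 5 and 7. With arrays scaled to one spread there were 1 for L2 and 3 for a, and with quantile normalization 3 for L2. Array weights gave 2 for L2 and 10 for d, forward arrays alone 2 for L2, and each clone's own variance 3 for a. Subtracting neighbours gave 1 for L2 and 2 for a, and it turned the signs of L1 and d of clone 8. Its L1 became -0.041 and lost the call (limma, adjusted p = 0.456). Its d was 0.094 and not called as deposited (adjusted p = 0.171), and became -0.089 with a call (adjusted p = 0.044). Leaving out 1 array gave 7 to 9 calls in L1, 0 in L2, 5 to 6 in d and 4 to 7 in a. The dye orientation difference, called for 1 clone on the H99 and 1 on the B73 arrays, gave 3 and 0 with scaled arrays, 3 and 0 with quantile normalization, 0 and 0 with own variance, 3 and 0 with array weights and 2 and 3 after subtracting neighbours. Leaving out 1 array gave 0 to 1 in both sets. The cause was not tested.

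Of 1748 values of single clones under 23 alternatives, 1626 stayed on their side of the threshold, 98 of them uncalled and with another sign, 84 lost a call, 36 gained one and 2 were reversed. Arrays with the same number in both sets correlated at -0.306 to 0.308 in their deviations, 2 of 5 above 0.1, and 1 of 5 was most like its own number, so the numbers were not taken to pair arrays. The replicate block left 7 calls in L1, 0 in L2 and 5 in each of d and a. The 5 arrays a set limit the precision, and labellings of 1 RNA pool carry no spread between plants.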
